A study of Mus musculus with 24 samples.

Results

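The effect of Ptk6 loss during succinate feeding was examined in female mice. Ptk6-/- females were compared with wild type females, and all of them had 100 mM succinate in the drinking water for 7 days. These were 6 of the 24 libraries of the series, 3 Ptk6-/- and 3 wild type, and the genes compared were the 19180 of 56691 listed genes with 10 or more counts in 3 or more of these libraries. The Ptk6-/- allele is a germline disruption, present in every cell of the body, in mice backcrossed to C57BL/6. Mice of both genotypes were bred in 1 colony, were similar in age and were not all littermates. RNA was taken from the whole wall of the distal jejunum, with 1 library per mouse and no pooling, so that epithelium, lymphocytes, muscle and nerve all contribute. In such tissue, fewer cells of a type and less RNA per cell cannot be told apart. Untreated females and succinate-treated males, each with 3 mice per genotype, were used here only to show where the comparison differs.

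PTK6 is an intracellular tyrosine kinase that belongs to a small family with FRK and SRMS and is found mainly in epithelia, among them the lining of the intestine. Tuft cells are rare chemosensory cells of that lining. They carry the succinate receptor SUCNR1 and, when it is engaged, release interleukin 25, which acts on innate lymphoid cells. These cells make interleukin 13, which in turn drives crypt progenitors toward tuft and goblet cells. Succinate in drinking water sets off this type 2 immune circuit without a parasite, and the comparison asks how the circuit and the rest of the jejunal transcriptome differ when Ptk6 is missing in females.

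Total counts lay between 34663680 and 50024575 per library, and transcripts that define the small intestine were abundant in all 6 (Apoa1, the main apolipoprotein of absorptive cells, at 5479 to 22076 CPM, and Muc2, the goblet cell mucin, at 1369 to 3245 CPM). CPM values are counts relative to the library total after TMM scaling, a between-library normalization, and are not divided by gene length, so they compare libraries for 1 gene and not genes with each other. The library labelled wild type replicate 2 stood apart. Myh6, the heart's alpha myosin heavy chain, was at 9212 CPM in it and at 0 to 9.26 in the other 5. Tnnt2, cardiac troponin T, was at 3283 CPM against 11.4 to 35.1, and Actc1, cardiac actin, at 3125 against 1.5 to 35.9. A list of 36 heart muscle genes summed to 37502 CPM in that library, 3.27% of its counts, and to 134 to 293 CPM elsewhere. Its 13 protein-coding genes of the mitochondrial genome summed to 148064 CPM, against 15974 to 36236 in the others. It also held 2291 counts of the Y-linked genes Kdm5d, Uty, Ddx3y and Eif2s3y, although labelled female, while none of the other 11 female libraries of the series had more than 42. Xist, the RNA that coats the inactive X chromosome, was at 80.8 CPM in it and at 96.7 to 152 in the other 5. Wild type replicate 1 had the next highest heart list sum, 293 CPM, with Myh6 at 9.26, and was the library with 42 Y-linked counts. In the Ptk6-/- libraries and wild type replicate 3 the heart list summed to 134 to 174 CPM and Myh6 was at 0 to 0.271. Every list below is therefore given with and without wild type replicate 2, while replicate 1 is kept in both. Rn18s-rs5, an 18S ribosomal RNA gene, took 0.190%, 1.01% and 0.108% of the counts in the Ptk6-/- libraries and 0.981%, 3.52% and 3.80% in the wild type, so that it was lower in the mutant group in all but 1 pairing of libraries. Its part in the results was not tested. Across genes, wild type replicate 3 correlated more closely with Ptk6-/- replicates 1 and 3 (Pearson's r of log2 CPM 0.961 and 0.955) than with the other wild type libraries (0.907 and 0.870), and wild type replicate 1 correlated best with Ptk6-/- replicate 2 (0.950).

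**Figure D1:**
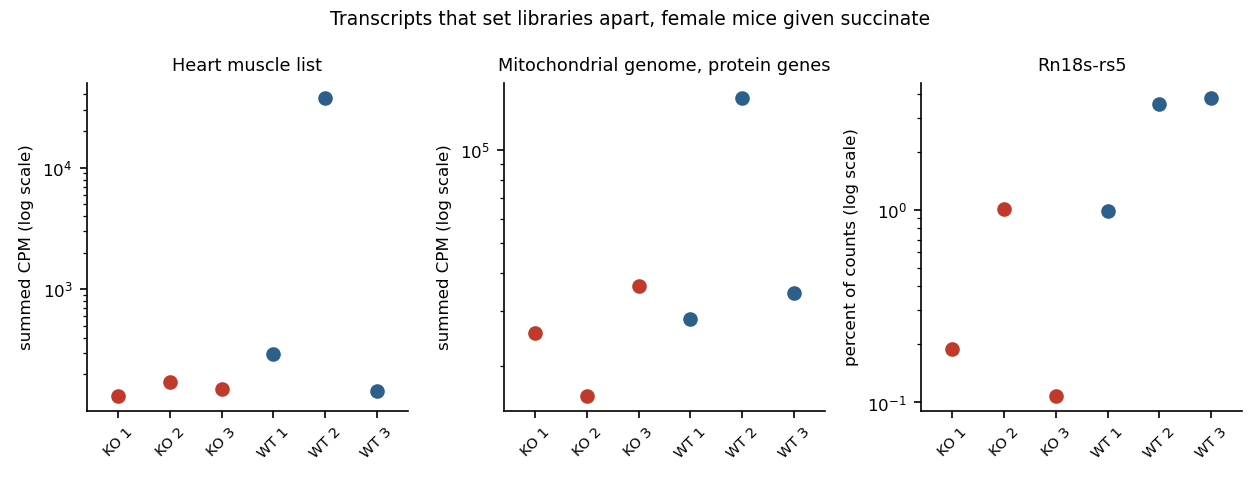
Summed CPM of the heart muscle list (left) and of the protein-coding genes of the mitochondrial genome (middle), and the percentage of counts on Rn18s-rs5 (right), on log axes, for each Ptk6-/- (KO, red) and wild type (WT, blue) female given succinate. Each point is 1 library. Wild type replicate 2 lies at 37502 CPM on the left and 148064 CPM in the middle, above all other libraries, and wild type replicates 2 and 3 lie highest on the right.

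The disrupted gene was measured first. Ptk6 (ENSMUSG00000038751, GRCm39 chr2:180835514-180844582, minus strand) was at 0.972, 0.332 and 0.325 CPM in the Ptk6-/- libraries and at 10.3, 9.41 and 21.5 CPM in the wild type. The groups did not overlap, and wild type replicate 3 was highest. The log2 fold change was -4.65 ± 0.63 (SE, 3 mice per group, 95% interval -6.12 to -3.19). In edgeR's quasi-likelihood test with Benjamini-Hochberg adjustment over all 19180 genes the adjusted p was 0.779, and DESeq2 gave an adjusted p of 3.09e-11. In edgeR fits that pooled the spread over more mice the gene passed, with an adjusted p of 0.000285 over all 24 libraries and 0.0478 over the 11 female libraries without wild type replicate 2. The related kinases were not separated by genotype. Frk was at 59.0, 58.6 and 78.0 CPM in Ptk6-/- and 46.4, 32.1 and 60.7 in wild type (log2 fold change 0.49 ± 0.31 SE), and Srms was at 0.109 to 0.331 CPM in all 6 libraries. Of 33 genes that neighbour Ptk6 on chromosome 2, 29 were tested and 12 of these had a fold change above 0, with a median log2 fold change of -0.06 (-0.05 without wild type replicate 2, and from -0.19 to -0.03 with each library left out). The neighbours Eef1a2, a muscle and nerve elongation factor, and Zbtb46, a transcription factor of dendritic cells, had 309 and 13.9 CPM in wild type replicate 2 and 3.42 to 9.76 and 1.02 to 2.59 elsewhere. Without that library their log2 fold changes were -1.11 ± 0.32 and -0.87 ± 0.42 (SE), and neither was called.

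Across all genes, edgeR called 0 of 19180 (0%) at an adjusted p under 0.05 and a fold change of at least 2. The smallest adjusted p was 0.139, that of Derpc, so neither it nor Ptk6 passed. At an unadjusted p under 0.05 there were 867 genes (4.52% of those tested), 310 higher in Ptk6-/- (1.62%) and 557 lower (2.9%). Without wild type replicate 2, edgeR again called 0 of 18865 (0%), with 393 genes at an unadjusted p under 0.05 (202 higher, 1.07%, and 191 lower, 1.01%), of which 279 were among the 867. DESeq2 called 28 of the 18609 genes to which it gave an adjusted p (0.15%), 7 higher in Ptk6-/- (0.0376%) and 21 lower (0.113%). Without wild type replicate 2 it called 14 of 18860 (0.0742%), and 9 genes were in both sets. The spread between mice of a group was wide, with a common biological coefficient of variation of 51.3%, and 45.3% without that library. For 2022 genes (10.5%) the 3 Ptk6-/- libraries lay entirely above (1190 genes, 6.2%) or below (832 genes, 4.34%) the 3 wild type libraries. A single value compared by exact permutation of 3 mice against 3 cannot reach a two-sided p below 0.1. The median log2 fold change of all genes was -0.03, and 47.1% of genes lay above 0 (-0.02 and 47.6% without wild type replicate 2). Scaling moved that median to 0.13 on log2(FPKM + 1) and to -0.26 once the dependence of counts on gene length was offset library by library, so the lists below are read against the median of all genes. Since no gene passed the main test, the leading genes below are those with the smallest p among genes whose libraries did not overlap between genotypes. Their lack of overlap is thus a condition of entry and not a result. All named genes are described by their values.

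Among the 12 leading genes that were higher in Ptk6-/- was Kit, the receptor tyrosine kinase for stem cell factor, which marks mast cells, pacemaker cells of the gut wall and some secretory cells of the crypt. Kit (GRCm39 chr5:75735576-75817382, plus strand) was at 39.5, 47.2 and 54.0 CPM in Ptk6-/- and at 26.0, 15.2 and 23.4 in wild type. Its log2 fold change was 1.13 ± 0.30 (SE, edgeR adjusted p = 0.931), and 0.93 ± 0.28 without wild type replicate 2. Of the 12, 4 were variable segments of immunoglobulin genes, whose counts reflect which antibody-producing clones are present and which are similar enough that reads can be shared between them. Ighv14-4 was at 1.60, 1.72 and 1.48 CPM in Ptk6-/- and had no count in any wild type library, at least 18.7-fold higher against a floor of 3 counts per library. Ighv3-1 was at 3.68, 4.48 and 7.86 CPM against 0.427, 0.199 and 0.737, and DESeq2 called it higher (adjusted p = 3.62e-05). Ighv14-4, and Derpc, Fsbp and Tat below, passed the count minimum only through the Ptk6-/- libraries, in which they are high. Igkv12-44 ran from 13.5 to 54.4 CPM against 7.33 to 9.64. Igkv5-39 was at 23.2 CPM in Ptk6-/- replicate 1, at 3.34 and 2.11 in the other mutants and at 0.552 to 1.15 in wild type.

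Derpc had the smallest p of all genes, at 29.4, 30.7 and 22.5 CPM against 0, 0 and 0.109, a log2 fold change of 9.42 ± 0.90 (SE, edgeR adjusted p = 0.139, DESeq2 adjusted p = 1.10e-25). It overlaps Chtf8, a cofactor of DNA replication, on the same strand, and when the counts of the overlapping genes were summed the log2 fold change was 0.14 ± 0.30 (SE). H3c14, a replication histone, was at 9.79, 10.1 and 4.59 against 2.21, 0.696 and 1.91 CPM, and its log2 fold change went from 2.34 to -0.62 on summing with its neighbour Gm20634. Alone it was called by DESeq2 (adjusted p = 0.0319), but not without wild type replicate 2 (DESeq2 adjusted p = 0.0938). Fsbp, which overlaps the DNA repair gene Rad54b, went from 2.43 to 0.72. At these 3 loci the summed log2 fold change was smaller in size than that of the single gene. The remaining genes of the group stood at low levels. Pms1, a DNA mismatch repair gene, was at 3.28, 2.34 and 4.66 CPM against 1.00, 1.03 and 1.17 (log2 fold change 1.68 ± 0.42 SE). Hapln4, a hyaluronan link protein, was at 2.02 to 3.04 against 0.655 to 0.961 CPM. Tat, the liver enzyme of tyrosine breakdown, was at 0.416 to 2.49 against 0.151 to 0.199 CPM. Kcns3, a modulatory potassium channel subunit, was at 1.04 to 1.62 against 0.265 to 0.464 CPM.

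**Figure D2:**
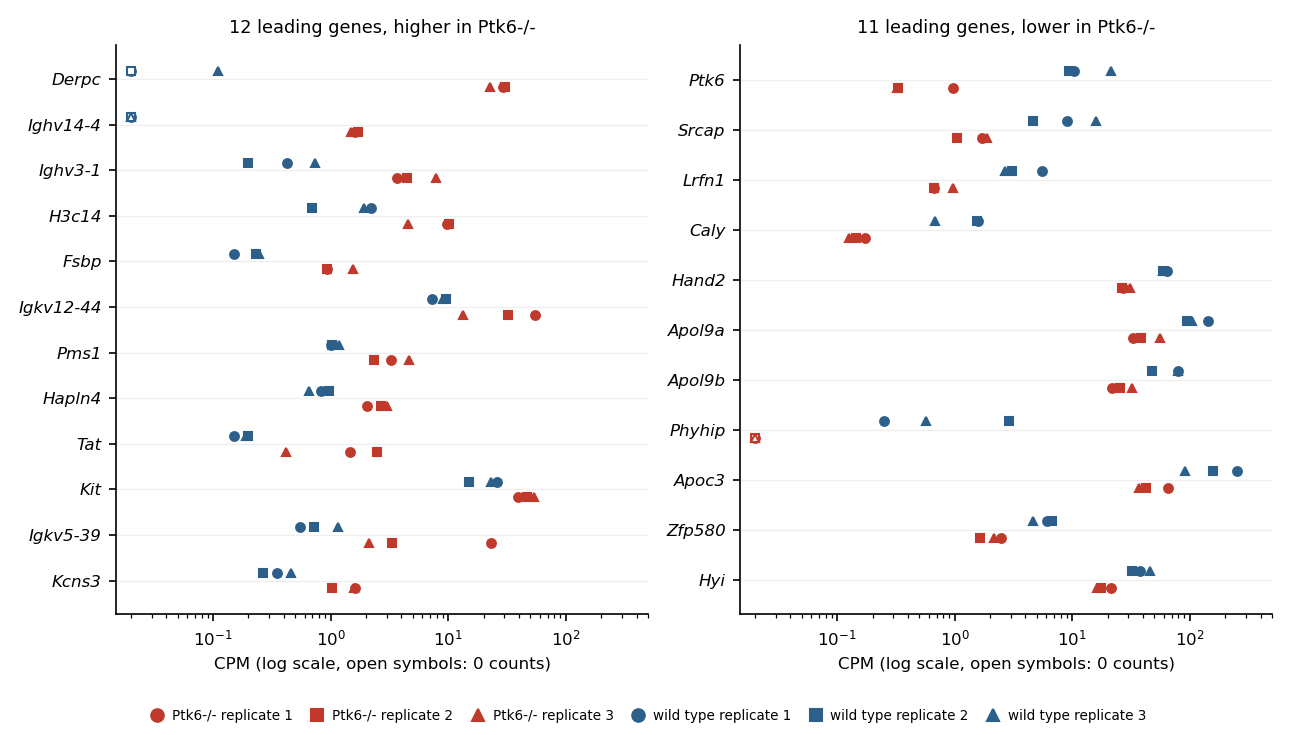
CPM on a log axis of leading genes, 12 that were higher and 11 that were lower, with the smallest p among genes whose libraries did not overlap between genotypes, higher (left) or lower (right) in Ptk6-/- females given succinate. Each symbol is 1 library (red Ptk6-/-, blue wild type, shape by replicate number) and open symbols mark 0 counts. Ptk6 itself heads the right panel, and Hand2 shows little spread within either group.

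Among the leading genes that were lower in Ptk6-/-, after Ptk6, were a pair of interferon-inducible apolipoprotein L genes. Apol9a was at 32.7, 38.7 and 55.2 CPM in Ptk6-/- and at 143, 94.6 and 105 in wild type. Its log2 fold change was -1.44 ± 0.32 (SE, edgeR adjusted p = 0.931) and -1.56 ± 0.34 without wild type replicate 2, and DESeq2 called it lower (adjusted p = 0.0367) but not without that library (adjusted p = 0.0643). Apol9b was at 21.8, 25.7 and 32.4 CPM against 79.5, 47.4 and 78.7, a log2 fold change of -1.36 ± 0.31 (SE), and was called by DESeq2 only without wild type replicate 2 (adjusted p = 0.00549). Both genes were separated by genotype, which the choice of leading genes required. The copies are near-identical, so that reads may be shared between them and the genes are not independent measurements. How alike they are is seen in the 250 bases before their most upstream RefSeq start sites (GRCm38.p6), shown here because both genes were lower in Ptk6-/-. The capitals mark 2 overlapping matches to GAAA, any 2 bases and GAAA again, the core letters of an interferon-stimulated response element. They lie on the reverse strand and so read TTTC, any 2 bases and TTTC.
Apol9a, chr15:77411081-77411330, minus strand: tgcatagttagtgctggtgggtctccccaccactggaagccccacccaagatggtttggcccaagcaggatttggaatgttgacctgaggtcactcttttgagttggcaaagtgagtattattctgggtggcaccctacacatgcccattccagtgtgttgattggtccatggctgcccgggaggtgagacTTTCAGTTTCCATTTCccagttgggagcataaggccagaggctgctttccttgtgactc
Apol9b, chr15:77728822-77729071, plus strand: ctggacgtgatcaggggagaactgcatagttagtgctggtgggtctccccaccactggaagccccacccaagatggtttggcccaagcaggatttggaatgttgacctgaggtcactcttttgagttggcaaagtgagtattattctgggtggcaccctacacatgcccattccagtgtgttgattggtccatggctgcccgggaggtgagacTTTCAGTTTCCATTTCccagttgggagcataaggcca
The windows share an unbroken run of 228 bases that holds the motif matches. On either strand, 936 of 27025 genes with a promoter window (3.46%) had such a match in the 250 bases before a start site, as did 14 of the 24 genes of the interferon list that have a window. A match describes the letters and is not evidence of a bound factor.

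Apoc3, an apolipoprotein of triglyceride-rich particles made by absorptive cells, was at 64.6, 42.1 and 36.8 CPM in Ptk6-/- and 254, 157 and 91.4 in wild type, a log2 fold change of -1.81 ± 0.44 (SE, DESeq2 adjusted p = 0.0495). Without wild type replicate 2 it was -1.85 ± 0.49 (SE) and no longer called (DESeq2 adjusted p = 0.268). Hand2 (GRCm39 chr8:57774018-57777668, plus strand), a transcription factor of the gut mesenchyme and enteric neurons, had little spread within either group, at 27.2, 26.7 and 30.9 CPM against 64.0, 58.9 and 59.0. Its log2 fold change was -1.10 ± 0.24 (SE, edgeR adjusted p = 0.931, DESeq2 adjusted p = 0.0226), and leaving out any 1 library kept it between -1.18 and -1.06, though without wild type replicate 2 DESeq2 did not call it (adjusted p = 0.0643). Hyi, a putative hydroxypyruvate isomerase, was at 16.1 to 21.2 against 31.9 to 45.7 CPM. Zfp580, a zinc finger gene, was at 1.64 to 2.50 against 4.61 to 6.66 CPM (log2 fold change -1.46 ± 0.36 SE, and -1.31 when summed with Ccdc106, which overlaps it). Srcap, a chromatin remodelling ATPase, was at 1.71, 1.04 and 1.9 CPM against 8.96, 4.61 and 16.0 (log2 fold change -2.67 ± 0.53 SE, DESeq2 adjusted p = 0.00274), but with the 2 genes that overlap it on the same strand added the log2 fold change was -0.15 ± 0.37 (SE). Lrfn1, a synaptic adhesion protein, was at 0.663 to 0.976 against 2.67 to 5.50 CPM, and Caly, a dopamine receptor-interacting protein, at 0.127 to 0.171 against 0.682 to 1.58. Phyhip had no count in Ptk6-/- and 0.251, 2.88 and 0.573 CPM in wild type, highest in replicate 2, and against wild type replicates 1 and 3 alone it was at least 7.12-fold lower (floor of 3 counts per library). Caly and Phyhip passed the count minimum only through the wild type libraries, and neither passed it without wild type replicate 2.

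Another 3 genes entered the leading set only when wild type replicate 2 was left out. Ccn2, a matricellular growth factor, was at 16.2, 12.3 and 17.4 CPM in Ptk6-/- and 6.20 and 6.85 in wild type replicates 1 and 3, but 19.4 in replicate 2, and its log2 fold change moved from 0.50 ± 0.48 to 1.23 ± 0.31 (SE). The light chain segments Igkv16-104 and Igkv12-89 had log2 fold changes of 2.33 and -3.90 in that fit. Among the DESeq2 calls outside the rule for named genes, and named after their values were seen, were the 7SL RNA genes Rn7s1 and Rn7s2, transcribed by RNA polymerase III and part of the signal recognition particle. Rn7s2 was at 3.03, 37.6 and 6.11 CPM in Ptk6-/- and 58.9, 166 and 258 in wild type, the same order of libraries within each group as Rn18s-rs5 but for Ptk6-/- replicates 1 and 3, and it was not called without wild type replicate 2 (DESeq2 adjusted p = 0.348).

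The tuft cell list, 39 genes, was the first of the type 2 circuit. In it, 29 of 39 genes had a log2 fold change above 0, where 47.1% of all genes did, with a median of 0.26 against -0.03. An unadjusted edgeR p under 0.05 was reached by 2 genes that were higher (1.62% of all genes were) and 1 that was lower (2.9% of all genes), and 4 were higher without overlap (6.2% of all genes). Rgs13, a regulator of G protein signalling, was at 10.6, 17.0 and 28.2 CPM in Ptk6-/- and 9.97, 9.18 and 7.75 in wild type (log2 fold change 1.05 ± 0.40 SE, edgeR adjusted p = 0.931). Leaving out each library moved that log2 fold change from 0.62 to 1.32. Gnat3, the taste G protein gustducin, was at 1.09 to 1.66 against 0.298 to 0.846 CPM, and Hmx3, a homeobox factor, at 2.03 to 4.79 against 1.33 to 1.52. These 3 genes were separated by genotype. Nrgn, a calmodulin-binding protein, ran the other way, at 14.7, 52.7 and 25.0 against 167, 170 and 20.3 CPM, with overlap.

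The defining members of the list, among them the succinate receptor, were not separated. Sucnr1, the receptor, was at 1.79, 3.48 and 5.26 CPM in Ptk6-/- and 2.86, 3.05 and 1.99 in wild type (log2 fold change 0.41 ± 0.47 SE). Dclk1, the kinase used to stain tuft cells, was at 15.5, 21.9 and 41.8 against 21.2, 19.0 and 11.1 CPM (0.63 ± 0.43), and Irag2 at 33.8, 79.4 and 68.8 against 75.1, 55.5 and 22.7 (0.25 ± 0.49). Il25, the cytokine that tuft cells release, was at 0.0572, 1.26 and 0.506 against 1.03, 1.52 and 0.109 CPM (-0.54 ± 1.15). In all 4, Ptk6-/- replicate 1 was the lowest mutant and wild type replicate 3 the lowest wild type library. The summed CPM of the list showed the same, 602 in Ptk6-/- replicate 1 and 459 in wild type replicate 3 against 1094 to 1283 in the other 4 libraries. Leaving out wild type replicate 3 brought the median of the list to -0.03, and leaving out Ptk6-/- replicate 1 raised it to 0.48. Without wild type replicate 2 it was 0.35, with 33 of 39 genes above 0 and none at an unadjusted p under 0.05.

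Of 16 type 2 cytokine and receptor genes, 14 were tested, 8 lay above 0 and the median log2 fold change was 0.12 (0.44 without wild type replicate 2, and -0.37 when Ptk6-/- replicate 2 was the library left out). Il33, an alarmin that activates innate lymphoid cells, was the most separated, at 17.1, 20.7 and 18.3 CPM in Ptk6-/- and 11.3, 5.73 and 10.04 in wild type (1.05 ± 0.33 SE, edgeR adjusted p = 0.931), and 0.81 ± 0.27 without wild type replicate 2. Its receptor gene Il1rl1 was at 18.0, 81.6 and 32.9 CPM against 19.6, 21.9 and 14.7, with Ptk6-/- replicate 2 far above the rest. Il13 followed the same library, at 0.514, 3.63 and 0.669 CPM against 1.26, 0.928 and 0.109, and its log2 fold change of 1.06 ± 1.02 (SE) became -0.37 when Ptk6-/- replicate 2 was left out.

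Epithelial genes that type 2 cytokines induce followed. Of 24 listed, 21 were tested and 18 lay above 0, with a median log2 fold change of 0.31 (13 above 0 and 0.22 without wild type replicate 2), and none reached an unadjusted p under 0.05. Pla2g4c, a phospholipase, was at 1726, 2612 and 2989 CPM in Ptk6-/- and 1885, 1184 and 552 in wild type (1.02 ± 0.53 SE). Gsdmc2, a gasdermin of pyroptosis in such epithelium, was at 712, 1830 and 1546 against 1317, 814 and 249 CPM (0.78 ± 0.65), Gsdmc3 at 378, 693 and 724 against 461, 255 and 155 (1.04 ± 0.49) and Gsdmc4 at 995, 2018 and 1638 against 1390, 804 and 420 (0.83 ± 0.53). These gasdermin genes are close paralogs that may share reads. In each of the 4 genes wild type replicate 1 lay above the lowest mutant, so the groups overlapped, and wild type replicate 3 was lowest. Leaving out Ptk6-/- replicate 2 lowered the median to 0.09, and leaving out wild type replicate 1 raised it to 0.93.

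Mast cell and eosinophil genes had the highest median of the lists, 1.68 (2.04 without wild type replicate 2), with 9 of 12 tested genes above 0 and 3 higher at an unadjusted edgeR p under 0.05, Kit among them (1.62% of all genes were higher at that p). Ms4a2, a chain of the IgE receptor of mast cells, was at 0.610, 2.11 and 1.28 CPM in Ptk6-/- and 0.126, 0.199 and 0 in wild type (log2 fold change 3.62 ± 1.06 SE), and passed the count minimum only through Ptk6-/-. Ccr3, the eotaxin receptor of eosinophils, was at 2.57, 10.3 and 0.163 against 0.351, 0.497 and 0.191 CPM, and Fcer1a, another chain of the IgE receptor, at 0.476, 3.21 and 0.362 against 0.502, 0.331 and 0.109. The summed list was at 931 CPM in Ptk6-/- replicate 2 and at 42.2 to 186 in the other 5 libraries. Without that mouse the median was 0.03, so the list's height came from 1 library, and its part in Il13 and Il1rl1 above was not tested.

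**Figure D3:**
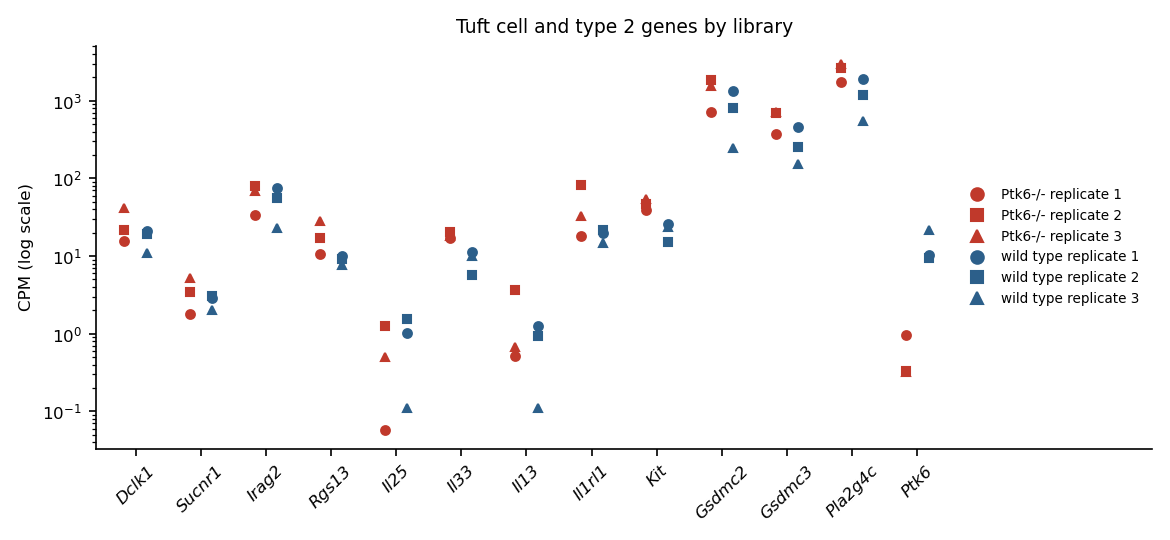
CPM on a log axis of tuft cell genes, type 2 cytokines and receptors, Kit, epithelial genes induced by type 2 cytokines, and Ptk6, in each library of succinate-treated females (red Ptk6-/-, blue wild type, shape by replicate number). The genotypes overlap for Dclk1, Sucnr1, Irag2, Il25, Il13, Il1rl1, Gsdmc2, Gsdmc3 and Pla2g4c and separate for Rgs13, Il33, Kit and Ptk6.

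Goblet cell genes showed no common direction, with 16 of 27 above 0 and a median of 0.09, which was -0.08 without wild type replicate 2 and 0.54 without wild type replicate 1. Clca1, a secreted goblet protein, was at 4367, 4492 and 4140 CPM in Ptk6-/- and 5631, 3535 and 3863 in wild type (log2 fold change of 0.00 ± 0.42 SE, 95% interval -0.97 to 0.97). Muc2, the gel-forming mucin, was at 1369 to 2900 against 1988 to 3245 CPM. Atoh1, the transcription factor that commits progenitors to secretory fates, was at 29.8, 28.3 and 32.7 CPM against 20.7, 9.87 and 26.3 (0.67 ± 0.37 SE), and Sytl2, a vesicle trafficking protein, at 29.5 to 38.7 against 10.6 to 28.6 (0.82 ± 0.39). Both were separated by genotype, though by little. Without wild type replicate 2 their log2 fold changes were 0.36 ± 0.27 and 0.54 ± 0.33 (SE).

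Paneth cell genes had 24 of 28 above 0 and a median of 0.27, which was 0.05 without wild type replicate 2, 0.01 without Ptk6-/- replicate 2 and 1.02 without wild type replicate 1. Lyz1, the lysozyme of Paneth granules, was at 8260, 5165 and 3017 CPM in Ptk6-/- and 4873, 1667 and 3720 in wild type (0.68 ± 0.59 SE). Mptx2, a pentraxin of the same cells, was at 1099, 2545 and 813 against 1652, 460 and 304 CPM. The 28 alpha-defensin genes, near-identical copies among which reads cannot be placed with certainty, had 27 above 0 with a median of 0.18, but only 6 above 0 without wild type replicate 2, where the median was -0.12. It was -0.24 without Ptk6-/- replicate 2 and 0.88 without wild type replicate 1. Their summed CPM ran from 26630 to 103207 in Ptk6-/- and from 35006 to 100050 in wild type, a spread within each genotype wider than the difference between them.

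Crypt genes were more uniform. All 28 cell cycle genes had a log2 fold change above 0, with a median of 0.49, 4 higher at an unadjusted edgeR p under 0.05 (1.62% of all genes were) and 0 lower, and 9 higher without overlap (6.2% of all genes). Without wild type replicate 2 there were 26 of 28 above 0, with a median of 0.24 and 3 higher at an unadjusted edgeR p under 0.05 (1.07% of all genes). The summed list of that library was at 529 CPM, against 771 and 1033 in the other wild type and 996 to 1108 in Ptk6-/-. Mcm4, a subunit of the replicative helicase, was at 26.4, 24.5 and 27.1 CPM in Ptk6-/- and 16.0, 15.5 and 15.4 in wild type (0.74 ± 0.24 SE, edgeR adjusted p = 0.931), and 0.73 ± 0.25 without wild type replicate 2. Mcm5, of the same helicase, was at 34.5, 35.9 and 37.5 against 28.2, 15.5 and 22.9 CPM. Cdc6, which loads that helicase, was at 8.17, 6.18 and 7.36 against 2.69, 1.62 and 4.56 (1.29 ± 0.44 SE). Kif11, a motor of the mitotic spindle, was at 16.1 to 20.2 against 7.55 to 12.3 CPM.

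Stem cell and Wnt target genes had 18 of 23 above 0 and a median of 0.36 (0.13 without wild type replicate 2). Olfm4, a marker of crypt base stem cells, was at 446, 505 and 443 CPM in Ptk6-/- and 260, 112 and 215 in wild type, a log2 fold change of 1.25 ± 0.39 (SE, edgeR adjusted p = 0.931) that was 0.97 ± 0.32 without wild type replicate 2. Slc12a2, the chloride cotransporter of crypt cells, was at 99.4, 123 and 107 against 87.3, 59.9 and 57.3 CPM, and Myc at 23.2 to 35.7 against 13.4 to 22.5. Lrig1, which restrains growth factor receptors, was at 47.3, 28.2 and 54.4 against 20.4, 16.9 and 33.4 CPM, with overlap. In the unfolded protein response list, 20 of 23 genes lay above 0 with a median of 0.35 (0.17 without wild type replicate 2). The chaperone Hspa5 was at 640, 973 and 700 CPM against 532, 363 and 513, the disulfide isomerase Pdia4 at 150, 172 and 162 against 105, 54.8 and 118, and Chac1, induced under such stress, at 1.81 to 4.21 against 1.20 to 1.72. All 3 were separated by genotype, and in Hspa5 and Pdia4 wild type replicate 2 was lowest.

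Genes of the mature absorptive cell leaned the other way. Of 32 absorptive enterocyte genes, 25 lay below 0 with a median of -0.25, which was -0.52 without wild type replicate 2 and 0.24 without wild type replicate 3. Beside Apoc3, Cdhr5, a protocadherin of the brush border, was at 1075, 942 and 1065 CPM in Ptk6-/- and 2086, 1483 and 1605 in wild type (-0.75 ± 0.36 SE), with no overlap and -0.85 ± 0.35 without wild type replicate 2. Apoa1 was at 6433, 11740 and 5479 against 22076, 17317 and 10074 CPM (-1.06 ± 0.56 SE). Detoxifying enzymes had 3 of 27 above 0 and a median of -0.41. Gsta4 and Gstm1, glutathione transferases, were at 11.6, 8.10 and 6.72 against 14.1, 33.0 and 17.6 CPM and at 54.2, 29.3 and 34.0 against 78.0, 124 and 59.7, both without overlap. Their log2 fold changes were -1.29 ± 0.41 and -1.16 ± 0.38 (SE), and -0.84 ± 0.34 and -0.82 ± 0.35 without wild type replicate 2. The median of the list was -0.66 without that library and -0.83 without Ptk6-/- replicate 1, but 0.24 without wild type replicate 3.

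Interferon response genes had 8 of 33 above 0 and a median of -0.34 (6 of 33 and -0.40 without wild type replicate 2). The median was -0.61 without Ptk6-/- replicate 1 and -0.16 when wild type replicate 3 was left out. Gbp6, an interferon-induced GTPase, was at 31.1 CPM in wild type replicate 2 against 1.83 to 12.4 elsewhere, and its log2 fold change of -2.20 ± 0.87 (SE) was -1.12 ± 0.77 without it. Oas2, a sensor of double-stranded RNA, was at 27.9 CPM there against 1.35 to 3.56, and went from -2.11 to -0.33. Ifit3, an antiviral repeat protein, was at 7.11, 3.52 and 3.62 CPM in Ptk6-/- and 7.23, 8.45 and 8.95 in wild type (-0.79 ± 0.38 SE), separated by a small gap. MHC class II genes had 2 of 12 above 0 and a median of -0.36 in all 6 libraries, -0.37 without wild type replicate 2 and -0.20 without wild type replicate 3. H2-DMa, the chaperone that loads peptides, was at 75.4, 75.6 and 42.9 CPM against 98.8, 75.7 and 85.2. Cd74, the invariant chain, was at 2211, 2050 and 1040 against 2884, 1800 and 2674 CPM, with overlap, and in both genes Ptk6-/- replicate 3 was lowest.

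Metabolic lists moved with wild type replicate 2. Targets of the fatty acid sensor PPAR alpha had 2 of 20 above 0 and a median of -0.75, which was -0.32 without that library. Pdk4, a brake on pyruvate oxidation, was at 257 CPM in it and 1.63 to 7.47 elsewhere, and Cd36, a fatty acid transporter, at 398 against 5.04 to 26.1. Acot2, a mitochondrial thioesterase, was at 20.3 CPM there, at 4.12 and 4.69 in the other wild type and at 2.57 to 2.86 in Ptk6-/-. Hadha, an enzyme of fatty acid oxidation, was at 194 to 278 against 331 to 520 CPM. All 13 protein-coding genes of the mitochondrial genome were below 0, with a median of -1.65 that became -0.27 without wild type replicate 2. Wild type replicate 1 shared the height of mt-Nd5, at 4681 CPM, with 8538 in replicate 2, 1106 in replicate 3 and 873 to 1528 in Ptk6-/-. Genes that handle succinate and the citric acid cycle had 5 of 26 above 0 and a median of -0.22, and 13 of 26 and 0.01 without wild type replicate 2 (-0.39 without replicate 3). Sdhb, a subunit of succinate dehydrogenase, was at 186, 270 and 149 CPM in Ptk6-/- and 290, 487 and 149 in wild type.

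**Figure D4:**
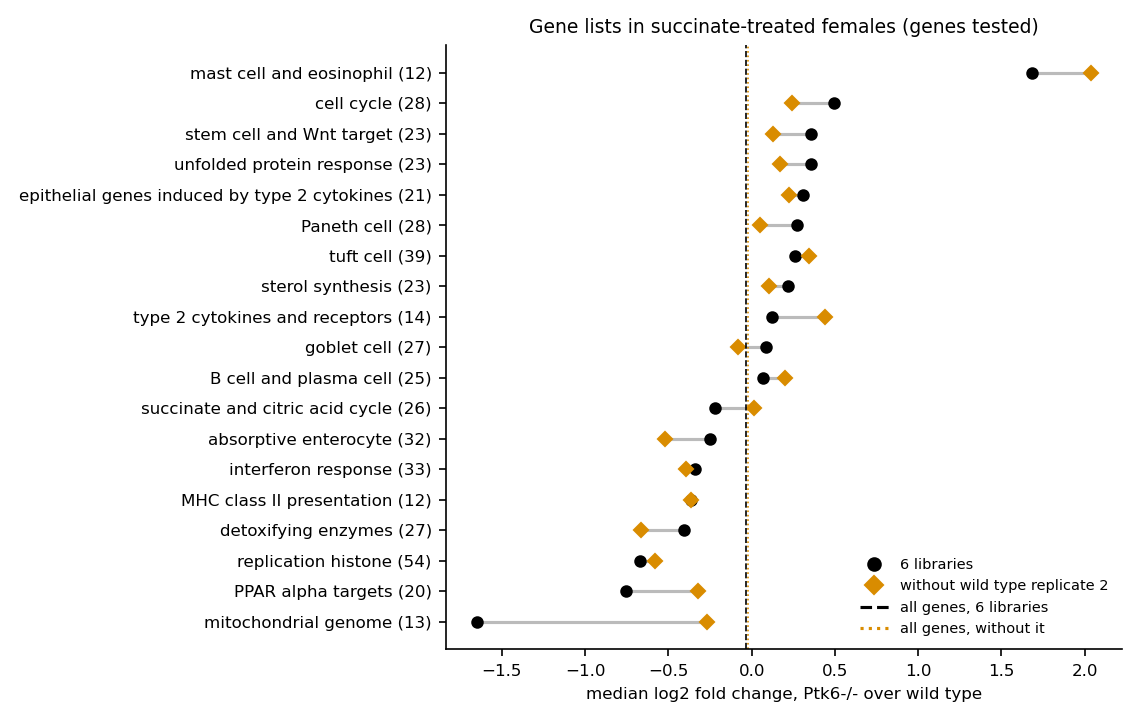
Median log2 fold change (Ptk6-/- over wild type, females given succinate) of 19 gene lists, with the number of genes tested in parentheses, over 6 libraries (black circles) and without wild type replicate 2 (orange diamonds). Vertical lines mark the median of all genes in the same fits, -0.03 and -0.02. Cell cycle, stem cell and unfolded protein response lists stay to the right of those lines in both fits, absorptive, interferon and MHC class II lists stay to the left, and the mitochondrial genome list moves from -1.65 to -0.27.

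Replication histone genes, whose transcripts mostly lack poly(A) tails, had 5 of 54 above 0 and a median of -0.67 (-0.58 without wild type replicate 2, and -1.25 when Ptk6-/- replicate 2 was left out), with 8 genes lower (2.9% of all genes were) and 1 higher (1.62% of all genes) at an unadjusted edgeR p under 0.05, and 16 lower without overlap (4.34% of all genes). Of the 54, 2 passed the count minimum only through wild type, and 49 passed it without wild type replicate 2, so these counts are a description. H4c2 was at 0.362, 0.456 and 0.127 CPM in Ptk6-/- and 1.38, 2.15 and 1.04 in wild type, and H3c1 at 0.0904 to 0.249 against 0.546 to 1.19. They ran opposite to the cell cycle genes and in the same direction as Rn18s-rs5 and the 7SL RNAs. Since these libraries were made from poly(A) RNA, such transcripts are retained only in part, and how much each library retained was not tested. Of 25 B cell and plasma cell genes, 13 lay above 0 with a median of 0.07 (0.20 without wild type replicate 2, 0.35 without Ptk6-/- replicate 2, and -1.06 when Ptk6-/- replicate 3 was the library left out). Jchain, which joins secreted IgA, was at 987, 1347 and 525 CPM in Ptk6-/- and 439, 370 and 491 in wild type (1.14 ± 0.43 SE, edgeR adjusted p = 0.931), and 1.04 ± 0.48 without wild type replicate 2.

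Transcripts of other tissues in the dissected wall were compared in the same way. Red blood cell genes were at 19.5 to 83.3 summed CPM in Ptk6-/- and 89.2 to 190 in wild type, with 1 of 6 tested above 0 and a median of -1.17 (-0.81 without wild type replicate 2, and -0.74 when Ptk6-/- replicate 3 was left out), and Hba-a1, an alpha globin, was at 26.4, 21.6 and 6.45 against 35.3, 61.7 and 35.6 CPM. Mesenteric fat genes had 1 of 11 above 0 with a median of -0.74 (-0.85 without wild type replicate 2, -2.70 without Ptk6-/- replicate 1 and -0.04 without wild type replicate 3), and summed to 186 to 461 against 318 to 643 CPM. Fabp4, the fatty acid carrier of fat cells, was at 294 CPM in wild type replicate 2 and 15 to 88.4 elsewhere. Smooth muscle genes had 4 of 20 above 0, with a median of -0.30 (-0.26 without wild type replicate 2, and -0.15 without replicate 1), and Des, the muscle filament desmin, was at 807, 1363 and 1032 CPM against 2544, 2804 and 837. The part of these tissues in the differences above was not tested.

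The same genotype comparison in succinate-treated males gave log2 fold changes below 0 for most of the type 2 genes named above that were tested there, but not for Il33 and Il1rl1. Il33 was 1.0 ± 0.63 in males, 0.05 from the female value, and Il1rl1 was 0.80 ± 0.57, 0.42 from it (errors are SE). In males the tuft cell list had a median log2 fold change of -0.86 over 37 genes, against 0.26 in females, and the epithelial type 2 list -0.97 over 20 genes, against 0.31, differences of lists that were not tested. Pla2g4c was 1.02 ± 0.53 in females and -3.85 ± 1.13 in males, a difference of 4.88, and Gsdmc3 was 1.04 ± 0.49 and -2.18 ± 0.50, a difference of 3.22 (errors are SE). For Gsdmc2 and Gsdmc4 the differences were 2.61 and 2.90. Kit was -0.45 ± 0.33 in males, a difference of 1.59, and Olfm4 was -0.68 ± 0.48, a difference of 1.94. None of these differences passed edgeR's test of the sex by genotype interaction. The edgeR adjusted p was 0.9999 for Il33, 0.981 for Il1rl1 and 0.950 for each of the others, also the smallest of the 20490 genes tested (0% called). Of these genes 993 had an unadjusted p under 0.05, and DESeq2 called 46. Leaving out any 1 of the 12 libraries kept the edgeR count at 0.

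Set against untreated females, the log2 fold change of Ptk6 was -5.64 ± 0.36 untreated and -4.65 ± 0.63 with succinate (SE, adjusted p of the difference 0.810 in edgeR). In untreated females Il33 was at 0.96 ± 0.24, Hand2 at -0.84 ± 0.41, Apol9a -0.93 ± 0.46 and Apol9b -1.09 ± 0.54, each on the side of 0 seen with succinate. So were Pla2g4c at 1.24 ± 0.35, Gsdmc3 at 0.35 ± 0.32 and Gsdmc4 at 0.27 ± 0.27 (SE). The epithelial type 2 list had an untreated median of 0.23 over 20 genes, against 0.31 with succinate. For the tuft cell list it was -0.05 over 34 genes, against 0.26, and for type 2 cytokines and receptors -0.13 over 10, against 0.12. These differences of lists were not tested. The cell cycle genes Mcm4 and Cdc6 were at 0.39 ± 0.25 and 0.53 ± 0.32 (SE). Jchain was -0.37 ± 0.35 untreated and 1.14 ± 0.43 with succinate and Hspa5 -0.70 ± 0.37 and 0.72 ± 0.36 (adjusted p of both differences 0.752 in edgeR). In the treatment by genotype test edgeR called 0 of 20531 genes (0%), 1327 genes reached an unadjusted p under 0.05, and DESeq2 called 61. For Ptk6, Il33, Hand2, Apol9a, Apol9b, Pla2g4c, Gsdmc3, Gsdmc4, Mcm4, Cdc6, Jchain and Hspa5, the differences between treated and untreated females were therefore not past the threshold.

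**Figure D5:**
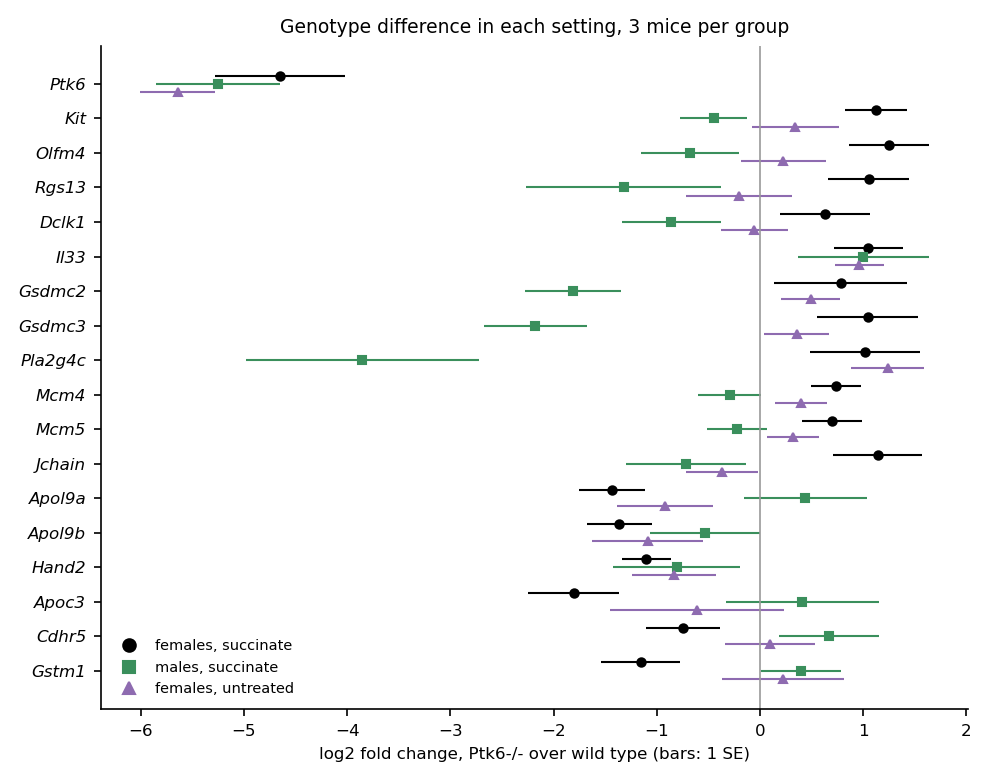
Log2 fold change of Ptk6-/- over wild type with bars of 1 SE for 18 genes in succinate-treated females (black), succinate-treated males (green) and untreated females (purple), 3 mice per group. Ptk6 lies between -5.64 and -4.65 in all 3 settings, the gasdermin genes and Pla2g4c lie to the right of 0 in females and to the left in males, and Hand2 lies to the left in all 3.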

How the data were processed

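RNA of the distal jejunum was sequenced from poly(A)-selected, dUTP-stranded libraries. The tables deposited by the authors hold raw read counts per gene for every library and, beside them, FPKM values that the authors made with StringTie and ballgown after trimming with Cutadapt, quality checks with FastQC and alignment with HISAT2. The submitters' processing notes also name gffcompare and the build GRCm39. The program that made the counts and the annotation release are not given in the sources used here. Gene symbols and positions were taken from the FPKM table.

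The counts of 6 libraries (34663680 to 50024575 per library, 3 mice per genotype) were fitted with edgeR 4.0.16 in R 4.3.3, using TMM scaling and the quasi-likelihood test with Benjamini-Hochberg adjustment, over genes with a minimum of 10 counts in 3 libraries. A call needed an adjusted p under 0.05 and a fold change of at least 2. Differences between sexes and treatments were tested as interactions over 12 libraries each. Intervals are 95% intervals, and folds against groups without counts used a floor of 3 counts per library, which covers counting error only. Alternatives were DESeq2 1.42.0, its size factors, other count filters, voom in limma 3.58.1, limma on log2(FPKM + 1) where FPKM averaged 0.5 or more, a gene length offset, the replicate number as a block, wider fits and each library left out.

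The members and the 42 gene lists were chosen with earlier results of these data known. Named genes were Ptk6, Frk and Srms, then per direction the 12 with the smallest p (8 without wild type replicate 2) among genes with at least 1 CPM on average in 1 group, no overlap between genotypes and no provisional name, and from each list described the members with the smallest p and the defining members. Summing of overlapping genes, and DESeq2 without wild type replicate 2, were added after seeing the data. Figures were drawn with matplotlib 3.10.9. Values of 2 genes that the rule names are not reported here. No sample was excluded from the main comparison.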

Additional observations from a re-analysis of the deposited data

Results flagged for a closer look

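The library labelled female wild type succinate replicate 2 held 2291 counts of 4 Y-linked genes, a signal outside the genes compared, while the other 11 female libraries had at most 42 and the 12 male libraries 122 to 4863. Its heart muscle transcripts are described above.

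Of the genes named by the rule, 7 had libraries that separated by genotype in succinate-treated females and separated the opposite way in another setting. Against males these were 4 of the 72 named genes that were separated in treated females and tested in both (5.56%), where the share over all genes was 5.95%. Against untreated females they were 3 of 69 (4.35%), where it was 7.82%. In succinate-treated females Galnt12 and Scg2 were higher in Ptk6-/-, and the other 5 were lower. Galnt12, an enzyme that starts O-linked glycans, was at 69.5, 81.6 and 54.4 CPM in Ptk6-/- and 54.1, 22.5 and 45.9 in wild type females, a log2 fold change of 0.75 ± 0.37 (SE; 0.45 without wild type replicate 2) against -0.19 ± 0.25 in males, a difference of 0.97 (female minus male). Ckmt2, a mitochondrial creatine kinase of heart and skeletal muscle, had 0, 0 and 3 counts in Ptk6-/- and 22, 24662 and 11 in wild type females, the 24662 in replicate 2. Against wild type replicates 1 and 3 alone it was at least 7.37-fold lower (floor of 3 counts per library). The fitted difference from males, -16.02, rests on replicate 2 and on mutant counts at the floor, and is not a measured size. Ckmt2 passed the count minimum only through wild type and did not pass it without replicate 2. Lcn2, an antimicrobial siderophore-binding protein, was at 1.71, 1.70 and 0.651 CPM in Ptk6-/- and 3.14, 5.14 and 1.96 in wild type females, a log2 fold change of -1.33 ± 0.55 (SE), and had one of 1.75 ± 0.77 in males, a difference of -3.05 (female minus male). Ifit3 was -0.79 ± 0.38 in females and 0.60 ± 0.35 in males, a difference of -1.37. Srcap was -2.67 ± 0.53 with succinate and 2.83 ± 1.05 in untreated females, a difference of -5.48 (succinate minus untreated), but summed with the genes that overlap it on the same strand it was -0.15 ± 0.37 with succinate. Scg2, a secretogranin of endocrine and nerve cells, was at 31.0, 32.6 and 27.9 CPM against 19.2, 8.48 and 26.7, which gave 0.75 ± 0.41 with succinate (0.41 without wild type replicate 2) and -0.59 ± 0.36 untreated, a difference of 1.35. Col4a2, a basement membrane collagen, was at 87.0, 71.1 and 108 CPM in Ptk6-/- and 179, 239 and 114 in wild type, which gave -1.0 ± 0.36 with succinate against 0.78 ± 0.34 untreated, a difference of -1.76. None of the 7 passed edgeR's interaction test, with an adjusted p of 0.950 for each sex difference and 0.752 for each treatment difference.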

How the results depend on the processing

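The count of called genes was 0 in edgeR with DESeq2 size factors, with no filter or with 10 counts in every library, with the gene length offset, with voom and without the fold threshold. It was 28 with DESeq2, 14 with DESeq2 without wild type replicate 2, 2 with limma on log2(FPKM + 1), and 1 (Ptk6) both with all 24 libraries and with the 11 female libraries other than wild type replicate 2. Leaving out each library gave 0 to 1, the 1 being Derpc without wild type replicate 3 (edgeR adjusted p = 0.0381). DESeq2 called 46 sex and 61 treatment interactions, and edgeR 0 with any library left out. The replicate numbers name different mice, and their deviations correlated by -0.198, 0.108 and 0.279, so they were not taken as pairs. With the replicate block edgeR called 0 (smallest adjusted p = 0.394), also in both interactions and with the length offset added.

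Of 108 genes under the alternatives, 1837 of 1882 log2 fold changes kept their direction and side of the threshold, 26 passed it and 19 changed sign. H3c14 became -0.62 when summed with its overlapping gene. Clca1, at 0.00, became 0.025 with no filter, 0.027 with the replicate block, 0.22 on FPKM and 0.0071 over all 24 libraries (-0.13 to 0.23 with each library left out). With voom Il13 became -0.18, Sucnr1 -0.18 and Irag2 -0.36. With the length offset Irag2 became -0.034 and Srms -0.039, where the median of all genes was -0.26. Il25 became 0.10 over the 11 female libraries and 0.10 with DESeq2 without wild type replicate 2. Leaving out each library moved Il13 from -0.37 to 1.64, Il25 from -1.64 to 0.088, Irag2 from -0.11 to 0.63, Sucnr1 from -0.0074 to 0.72 and Srms from -0.17 to 0.56. The cause of these changes was not tested. Of 41 lists, 39 kept their side of the median of all genes in the 4 scalings compared, and 34 did so without wild type replicate 2 as well.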

Other observations

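Sterol synthesis genes lay mostly above 0 in Ptk6-/- females given succinate, 19 of 23 with a median log2 fold change of 0.22 (0.11 without wild type replicate 2, and 0.44 without replicate 3), and none reached an unadjusted edgeR p under 0.05. Idi1, which makes the isoprene unit, was at 45.6, 112 and 65.2 CPM in Ptk6-/- and 51.0, 38.3 and 39.4 in wild type, with overlap. Genes of the distal small intestine lay below 0 in 10 of 11, with a median of -0.40 (-0.58 without wild type replicate 2) that was -0.61 when Ptk6-/- replicate 2 was left out and -0.19 when wild type replicate 3 was. Fabp6, the ileal bile acid carrier, was at 971 CPM in wild type replicate 3 and 17.2 to 266 elsewhere, while Slc51b, a bile acid exporter subunit, was at 93.6 to 118 in Ptk6-/- and 124 to 191 in wild type. Genes of the proximal small intestine lay below 0 in 6 of 10, with a median of -0.11 (-0.10 without wild type replicate 2). That median was -0.48 without Ptk6-/- replicate 3 and 0.18 without Ptk6-/- replicate 2.

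Among endocrine genes, 17 of 24 lay above 0 with a median of 0.17, which was -0.01 without wild type replicate 2 and rose to 0.40 when Ptk6-/- replicate 3 was left out. Neurog3, the factor that commits progenitors to the endocrine lineage, was at 2.23, 1.80 and 1.14 CPM in Ptk6-/- and 0.226, 0.729 and 0.491 in wild type, a log2 fold change of 1.84 ± 0.60 (SE), and 2.26 ± 0.63 without wild type replicate 2. The groups did not overlap, and the edgeR adjusted p was 0.931. Genes of the lamina propria and muscle coat were mixed. Pdgfrb, a receptor of pericytes and fibroblasts, was at 17.7 to 21.2 CPM in Ptk6-/- and 26.7 to 39.9 in wild type, Smtn, a smooth muscle contractile protein, at 141 to 168 against 170 to 314, and Col5a2, a fibrillar collagen, the other way at 39.7 to 47.5 against 25.0 to 35.6. Each was separated by genotype, and none passed the edgeR test.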
